A study of Mus musculus with 25 samples.

Results

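The genes described here are 9 subunits of cullin-RING ubiquitin ligases in the mouse testis: the cullins Cul1, Cul2, Cul3, Cul4a, Cul4b, Cul5 and Cul7, the CUL4 adaptor Ddb1 and the CUL4 substrate receptor Dcaf7. They were taken by name as 9 of the 29244 gene symbols in the count tables, by a rule that uses no measured value though earlier results of these data were known, and all 9 were present. The study used Drop-seq, a droplet method in which barcoded beads catch polyadenylated RNA of single cells, with 3′ ends read and copies of 1 molecule collapsed by a unique molecular identifier (UMI). The whole-testis libraries were 11 wild-type, 6 Mlh3-/-, 2 Cul4a-/- and 2 CNP eGFP BAC TRAP, and 4 further libraries held sorted germ cells. The labels give C57BL/6 for wild-type and CNP mice and B6;129 for Mlh3-/- and Cul4a-/- mice, whereas the study's methods name C57BL/6J for the former and B6.129-Mlh3tm1Lpkn/J for the Mlh3 line.

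The wild-type males were 3 months 1 day to 9 months 14 days old, and the Cul4a-/- males were 1 month 18 days and 1 month 21 days old by their labels. Those of the Mlh3-/- libraries were 2 months 21 days to 8 months 30 days old and those of the CNP libraries 2 months 14 days and 2 months 16 days. The study's own sample list gives the ages of the Cul4a-/- and CNP animals the other way round. Wild-type replicates 1 and 2 were dissociated with enzymes and all other whole-testis libraries mechanically. Wild-type replicates 1 and 3 were sequenced on a MiSeq, and both Cul4a-/- libraries on a HiSeq. The sorted spermatogonia came from 5 pooled pups of 7 days, labelled Pouf51-EGFP and given in the methods as Pou5f1-EGFP reporter mice, and the sorted primary spermatocytes, secondary spermatocytes and spermatids came from wild-type males of 2 months 21 days. Strain background, age, sequencing depth and genotype changed together between Cul4a-/- and wild-type libraries, so their parts in any difference cannot be told apart. The sources used here do not give the position of the Cul4a deletion, so 3′ counts of Cul4a do not check the label of those libraries.

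Cullins are the elongated scaffolds of modular ubiquitin ligases. One end binds a RING protein that recruits the ubiquitin-loaded E2 enzyme, and the other binds an adaptor and a receptor that selects the substrate, and attachment of NEDD8 to the cullin switches the ligase on. CUL1 works with SKP1 and F-box proteins, CUL2 and CUL5 with elongins, CUL3 with BTB proteins, and the paralogs CUL4A and CUL4B with DDB1 and WD40 receptors known as DCAFs. In male germ cells Cul4b lies on the X chromosome, which is transcriptionally silenced in pachytene spermatocytes by meiotic sex chromosome inactivation, whereas Cul4a lies on an autosome.

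In the GRCm38 build, with GENCODE vM21 gene models, Cul4a occupied chr8:13105621-13147940 on the plus strand and Cul4b chrX:38533274-38576196 on the minus strand. Ddb1 occupied chr19:10605327-10629819 and Dcaf7 chr11:106036872-106059324, both on the plus strand. Their promoters are shown because the 4 genes of the CUL4 ligases had different time courses in the germ line. Each RefSeq sequence (GRCm38.p6) runs 5′ to 3′ on the strand of the gene, from 250 bases before to 50 bases after the RefSeq start of transcription. For Ddb1 this start lies downstream of the GENCODE start, so its whole window lies inside the GENCODE gene model given above. Capitals mark matches on either strand to the GC box, spelled GGGCGG. They also mark the core of a cAMP response element, which reads TGACG, as well as the CCAAT box.
Cul4a, chr8:13105373-13105672, plus strand: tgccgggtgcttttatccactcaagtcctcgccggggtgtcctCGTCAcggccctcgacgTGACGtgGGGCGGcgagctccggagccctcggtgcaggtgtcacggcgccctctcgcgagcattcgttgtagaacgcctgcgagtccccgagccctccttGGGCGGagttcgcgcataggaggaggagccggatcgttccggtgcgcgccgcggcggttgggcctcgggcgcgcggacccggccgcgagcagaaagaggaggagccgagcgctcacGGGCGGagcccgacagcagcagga
Cul4b, chrX:38576147-38576446, minus strand: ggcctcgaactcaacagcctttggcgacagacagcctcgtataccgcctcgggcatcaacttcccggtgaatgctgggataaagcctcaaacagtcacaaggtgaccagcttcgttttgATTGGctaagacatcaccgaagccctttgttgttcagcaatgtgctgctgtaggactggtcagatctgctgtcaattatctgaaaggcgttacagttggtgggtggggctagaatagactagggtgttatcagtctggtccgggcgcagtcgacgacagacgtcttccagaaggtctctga
Ddb1, chr19:10605347-10605646, plus strand: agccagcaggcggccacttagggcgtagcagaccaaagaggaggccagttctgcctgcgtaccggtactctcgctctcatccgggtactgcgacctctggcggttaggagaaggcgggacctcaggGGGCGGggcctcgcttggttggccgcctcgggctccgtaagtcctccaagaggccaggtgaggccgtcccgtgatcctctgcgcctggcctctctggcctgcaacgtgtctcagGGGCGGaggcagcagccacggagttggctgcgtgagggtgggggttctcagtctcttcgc
Dcaf7, chr11:106036622-106036921, plus strand: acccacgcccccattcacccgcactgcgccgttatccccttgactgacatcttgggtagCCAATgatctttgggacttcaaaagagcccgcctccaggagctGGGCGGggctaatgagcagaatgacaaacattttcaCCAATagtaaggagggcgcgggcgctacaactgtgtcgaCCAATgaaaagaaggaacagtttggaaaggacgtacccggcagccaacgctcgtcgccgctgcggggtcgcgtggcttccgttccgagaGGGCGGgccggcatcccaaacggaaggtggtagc

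The Cul4a promoter was 71.0% G and C with 43 CpG dinucleotides, and the Cul4b promoter 52.3% with 14. The Ddb1 promoter held 22 CpG at 66.7% and the Dcaf7 promoter 24 CpG at 59.0%. Cul4a held 3 GC boxes and 2 core sites TGACG, Ddb1 held 2 GC boxes, and Dcaf7 held 2 GC boxes and 3 CCAAT boxes. Cul4b held 1 CCAAT box, read on the opposite strand 131 bases before the start, and no GC box in this window. The whole palindrome TGACGTCA and the NRF1 motif (GCGC, any base, TGCGC) had no match in any of the 4 windows. Of 32851 promoters of the same length, 35.7% held GGGCGG, 20.8% TGACG, 37.4% CCAAT, 1.79% TGACGTCA and 4.60% the NRF1 motif on either strand. Every TGACGTCA also counts as a TGACG.

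The other members were spread over the genome. Cul1 lay at chr6:47453398-47526139 (plus strand), Cul2 at chr18:3382988-3436377 (plus), Cul3 at chr1:80264923-80340480 (minus), Cul5 at chr9:53614582-53670014 (minus) and Cul7 at chr17:46650337-46664364 (plus). All 9 are protein-coding, and the 3′ tags counted for each fall in its transcribed region without a position in the count tables. Antisense or overlapping gene models with their own counts were small beside the members: Gm16124 across Cul5 had 145 UMIs, A930035D04Rik across Cul1 had 100 and Gm11646 across Dcaf7 had 29 over all libraries. Summed over all libraries, the members held between 163 UMIs (Cul7) and 13776 UMIs (Cul5), with 4017 for Cul4a, 2839 for Cul4b, 5735 for Ddb1 and 8465 for Dcaf7.

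The wild-type libraries held 357235 to 3829176 UMIs with a median of 2576385, and the Cul4a-/- libraries held 9691555 and 9745302. After the filters 36622 cells were clustered with the 9 members and the listed genes of their pathways left out, and clusters were named from marker genes. Names with the ending "-like" below stand for such clusters. Of the wild-type cells, 64.6% fell in clusters that could not be named, against 31.2% of the Cul4a-/- cells, so the stages describe the named cells. The wild-type libraries gave 3376 elongating and 2636 round spermatid-like, 1953 meiotic division-like, 357 pachytene-like and 246 leptotene/zygotene-like cells, with 28 spermatogonia-like cells. Doublets were not removed, and barcodes of the same sequence in different libraries were few (at most 27 between any 2 libraries). Levels are UMIs per 1000000 UMIs of the library or class (CPM). Since each transcript gives 1 UMI at its 3′ end, CPM is not divided by length. Exact Poisson and binomial intervals cover counting error only. Intervals of log2 differences come from the edgeR fits described below and also include the spread between libraries.

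Over whole testes, the wild-type levels of the CUL4 genes were moderate. Cul4a, 1 of the 2 CUL4 scaffolds, ranged from 5.60 to 45.7 CPM over the 11 wild-type libraries with a median of 36.3. Cul4b, the X-linked scaffold, ranged from 41.7 to 165 CPM with a median of 50.5. Ddb1, which bridges CUL4 to its receptors, had 47.4 to 112 CPM with a median of 63.0. Dcaf7, a WD40 receptor of DDB1 and CUL4, had 64.4 to 210 CPM with a median of 128. The lowest Cul4a and Dcaf7 and the highest Cul4b, Ddb1 and Cul3 came from wild-type replicate 1, the enzymatic MiSeq library with the fewest UMIs.

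**Figure D1:**
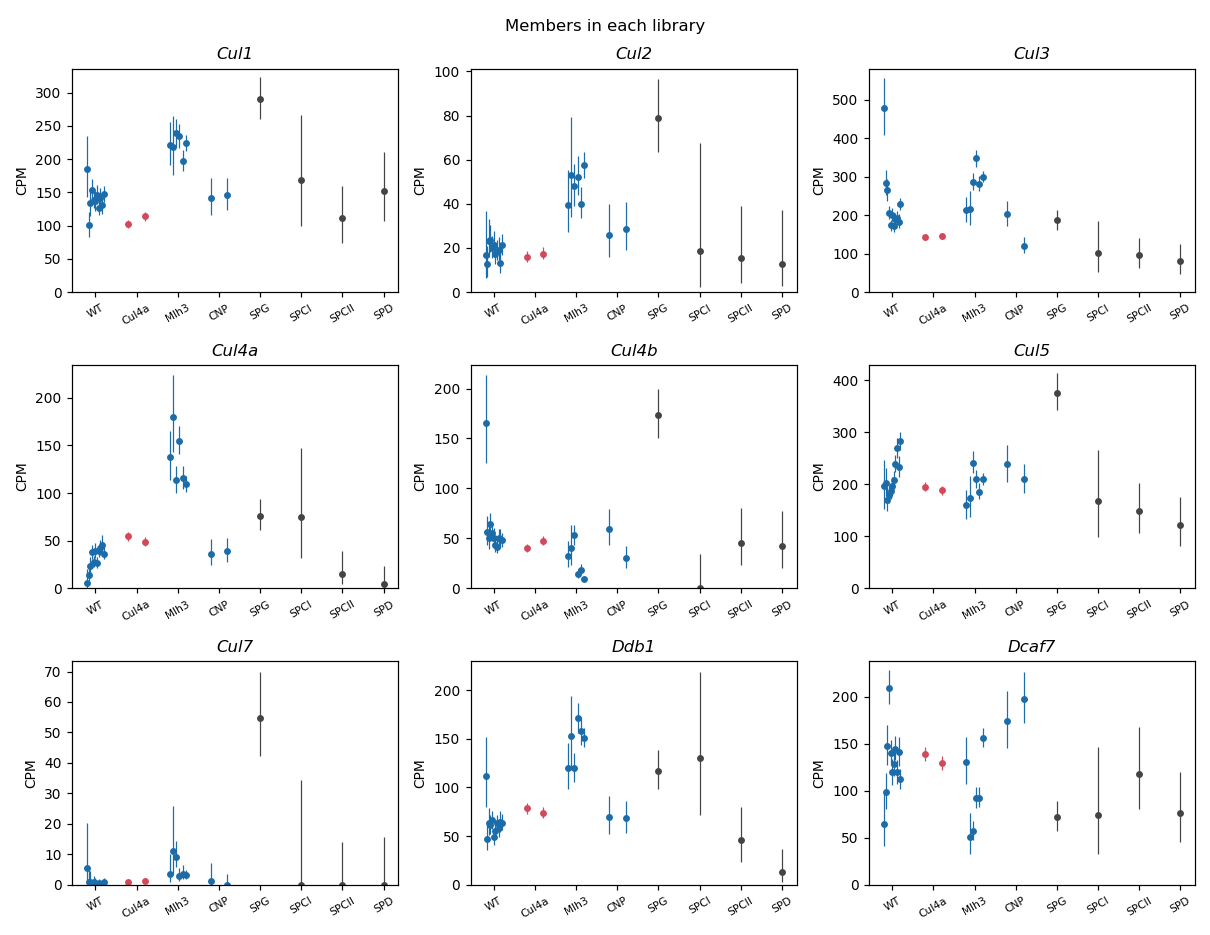
Level of each member (CPM) in each library, with 95% exact Poisson intervals as bars. WT, wild-type; SPG, SPCI, SPCII and SPD, sorted spermatogonia, primary spermatocytes, secondary spermatocytes and spermatids. Cul4a lies above every wild-type library in both Cul4a-/- libraries (54.5 and 49.0 CPM) and higher still in the 6 Mlh3-/- libraries, and Cul7 is highest in the sorted spermatogonia (54.8 CPM).

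Among the other cullins of whole wild-type testes, Cul5 (171 to 283 CPM, median 203) and Cul3 (172 to 479 CPM, median 201) had the highest medians and their ranges overlapped. Cul1, the scaffold of SKP1 and F-box ligases, had 100.1 to 185 CPM with a median of 139. Cul2 had 12.5 to 23.7 CPM with a median of 19.2, below every library's value of Cul1, Cul3 or Cul5. Cul7, an atypical cullin that works with FBXW8, was lowest with 0 to 5.60 CPM and a median of 0.552. Dcaf7 and Cul1, neighbors in the order of levels, overlapped in range and did not differ beyond the spread of the libraries. Cul4a and Cul4b overlapped in range too, but Cul4b was above Cul4a in each of the 11 wild-type libraries, a description with no test.

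The stages of germ cell development set the CUL4 genes apart far more than whole testes did. Among the classes from leptotene/zygotene-like cells onward, Cul4a was highest in early meiosis and low in spermatids. Its level was 129 to 371 CPM with a median of 167 in the 9 wild-type libraries with leptotene/zygotene-like cells and 65.8 to 164 CPM with a median of 127 in 9 with pachytene-like cells. In meiotic division-like cells of 11 libraries it was 0 to 50.7 CPM with a median of 18.1. Every wild-type pachytene-like sum lay above every meiotic division-like sum. These pachytene-like sums, also used in the stage tests below, leave out unnamed cluster 20. That cluster scored best as pachytene (0.50) and held 286 wild-type cells, and its part in the levels was not tested. Round spermatid-like cells had 3.54 to 20.6 CPM with a median of 11.8, and elongating spermatid-like cells had 0 to 15.8 CPM with a median of 9.32. The last 3 ranges overlapped each other.

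Cul4b ran the opposite course from pachytene-like to round spermatid-like cells. Its level in pachytene-like cells was 0 to 36.9 CPM with a median of 0, in other words most of the 9 libraries held no Cul4b UMI there. The value of 36.9 came from wild-type replicate 5, whose class sum had 10 cells and 1 Cul4b UMI, and no other library passed 8.43 CPM. In leptotene/zygotene-like cells Cul4b had 0 to 137 CPM with a median of 15.4. It then reached 32.3 to 149 CPM with a median of 48.0 in meiotic division-like cells and 72.2 to 216 CPM with a median of 92.2 in round spermatid-like cells. In elongating spermatid-like cells it was back at 14.0 to 66.6 CPM with a median of 28.0. Replicate 1 gave the highest round spermatid and division values.

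Ddb1 was lowest in spermatids. It had 35.8 to 293 CPM (median 146) in leptotene/zygotene-like cells, 86.5 to 184 CPM (median 130) in pachytene-like cells and 64.8 to 180 CPM (median 77.3) in meiotic division-like cells. These ranges overlapped. Round spermatid-like cells then had 12.3 to 48.7 CPM with a median of 22.0, below every meiotic division-like sum. Elongating spermatid-like cells had 12.2 to 66.6 CPM with a median of 16.3, which overlapped the round spermatid range.

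Dcaf7 peaked at the meiotic divisions. Pachytene-like cells had 36.9 to 108 CPM with a median of 87.7 and meiotic division-like cells had 86.1 to 454 CPM with a median of 290. The ranges met only through replicate 1, whose division-like cells had the 86.1 CPM, since the next lowest was 214 CPM. Round spermatid-like cells were back at 27.8 to 125 CPM with a median of 82.7, and elongating spermatid-like cells had 0 to 53.8 CPM with a median of 26.9. In leptotene/zygotene-like cells the range was 0 to 139 CPM around a median of 77.2.

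**Figure D2:**
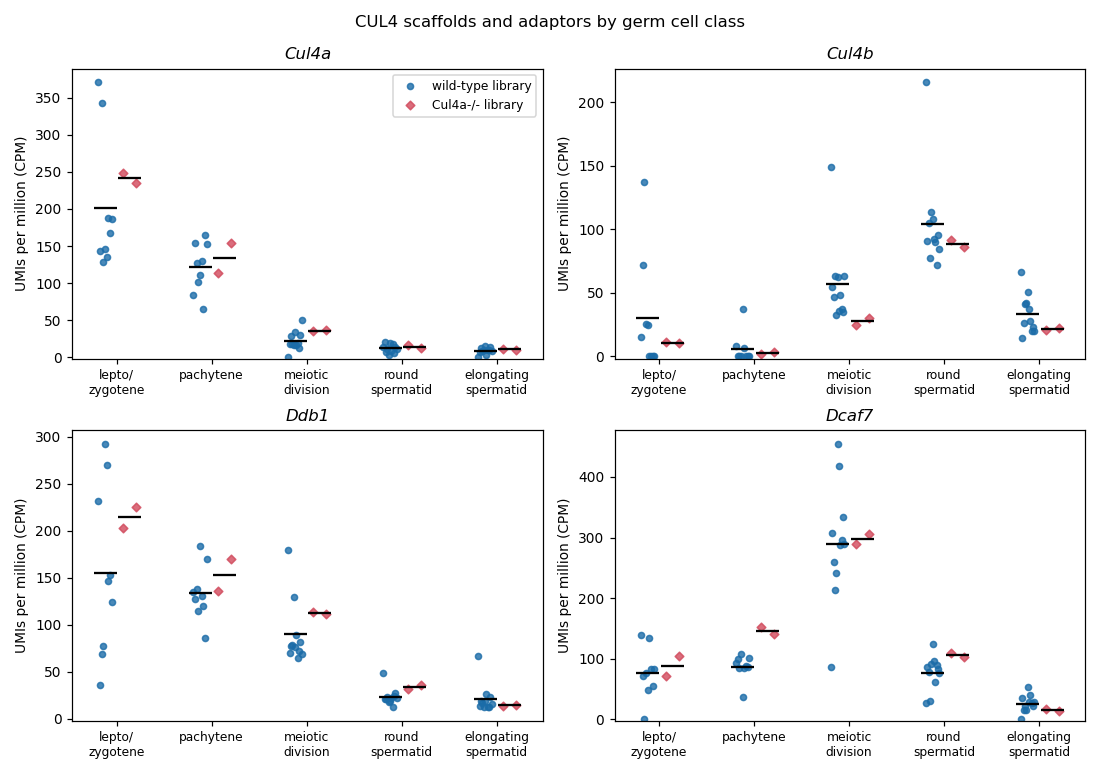
Level (CPM) of Cul4a, Cul4b, Ddb1 and Dcaf7 in each germ cell class, 1 point per library, wild-type as circles and Cul4a-/- as diamonds, with means as black bars. Cul4a falls from a wild-type median of 127 CPM in pachytene-like cells to 18.1 at the meiotic division, where Cul4b reaches 48.0 and Dcaf7 290.

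The steps between classes were tested in wild-type libraries with edgeR's quasi-likelihood test on counts summed per library and class, with the library as block and Benjamini-Hochberg adjustment over all 17274 genes tested. Scaling matters in these contrasts because the classes differ in the makeup of their RNA. From pachytene-like to meiotic division-like cells the median log2 change of all genes was 0.58 with TMM factors, 0.14 with library totals alone and -0.56 with DESeq2 size factors. Of all calls, 73.7% were higher at the division with TMM, 47.9% with totals and 47.0% with DESeq2. Cul7 had too few counts to be tested in germ cells. Of the 8 members tested, 6 passed the threshold of 0.05 with TMM (4 higher and 2 lower), against 39.6% of all genes (29.2% higher and 10.4% lower). With totals and with DESeq2 it was 3 higher and 4 lower, against 37.6% and 34.5% of all genes.

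At this step Cul4a fell by 1.58 on the log2 scale (SE 0.22, edgeR adjusted p = 1.63e-11) and Cul4b rose by 4.30 (SE 0.47, adjusted p = 4.43e-19). Relative to the median of all genes, the Cul4a change was -2.15 and the Cul4b change 3.73. Both kept their direction with totals (-2.20 and 3.82) and with DESeq2 (-2.21 and 3.71). With at least 50 cells per sum, which leaves fewer libraries, the Cul4a change was -0.95 (edgeR adjusted p = 0.0785), so its call was lost. Because Cul4b had 3 UMIs in the wild-type pachytene-like cells, the size of its fold change rests on these few UMIs. The levels given above are the firmer description. Dcaf7 rose by 2.42 (SE 0.16, adjusted p = 6.88e-49), and by 1.83 with totals and 1.85 with DESeq2. Ddb1 changed by -0.14 (SE 0.18, adjusted p = 0.582), which did not pass, but with totals it fell by 0.76 and with DESeq2 by 0.74, both past the threshold. Cul1 likewise did not pass with TMM (-0.24, adjusted p = 0.206) but fell by 0.86 with totals and by 0.84 with DESeq2, past the threshold each time. Cul2 fell by 1.35 (adjusted p = 5.49e-06) and Cul5 rose by 1.29 (adjusted p = 1.58e-17), and both kept their direction and call with either other scaling.

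From meiotic division-like to round spermatid-like cells, 5 of 8 members passed (2 higher and 3 lower) against 48.9% of all genes (26.6% higher and 22.3% lower). With totals it was 2 higher and 5 lower against 55% of all genes, and with DESeq2 3 higher and 2 lower against 42.4%. Cul4b rose by 1.29 (SE 0.13, edgeR adjusted p = 1.03e-20) and Cul1 by 1.06 (SE 0.11, adjusted p = 6.46e-22). Dcaf7 fell by 1.52 (SE 0.11, adjusted p = 1.53e-43) and Ddb1 by 1.44 (SE 0.17, adjusted p = 3.83e-17). These 4 kept direction and call with totals and with DESeq2. Cul4a fell by 0.61 (SE 0.24, adjusted p = 0.0242), a call that DESeq2 did not make (-0.47, adjusted p = 0.0984) and that was lost when any 1 of 8 wild-type replicates was left out. The median change of all genes was 0.03 with TMM, -0.32 with totals and 0.15 with DESeq2, and 54.4%, 39.2% and 58.3% of calls were higher.

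From round to elongating spermatid-like cells, 5 of 8 members passed (1 higher and 4 lower) against 37% of all genes (14.7% higher and 22.3% lower). With totals it was also 1 and 4 against 40.8% of all genes, and with DESeq2 1 and 3 against 33.6%. Cul4b fell by 1.25 (SE 0.16, edgeR adjusted p = 3.00e-13), Dcaf7 by 1.13 (SE 0.18, adjusted p = 1.10e-09) and Cul1 by 1.23 (SE 0.13, adjusted p = 5.02e-20). Cul3, the scaffold for BTB receptors, rose by 0.76 (SE 0.10, adjusted p = 3.14e-12). These 4 changes passed with each scaling. Cul4a (0.14, adjusted p = 0.778) and Ddb1 (0.11, adjusted p = 0.770) did not pass with TMM, and both turned negative with totals (-0.25 and -0.28). The median of all genes moved by -0.13, -0.47 and 0.41 with TMM, totals and DESeq2, and 39.6%, 22.2% and 53.4% of calls were higher.

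Over the whole span from pachytene-like to elongating spermatid-like cells, 7 of 8 members passed (3 higher and 4 lower) against 47.7% of all genes (28.1% higher and 19.6% lower). With totals it was 1 higher and 5 lower, without Cul3 and Cul5, against 53% of all genes, and with DESeq2 3 and 4 against 43.8%. Cul4a fell by 2.04 (SE 0.28, edgeR adjusted p = 1.29e-12), Ddb1 by 1.47 (SE 0.24, adjusted p = 5.82e-09) and Cul2 by 1.49 (SE 0.33, adjusted p = 1.74e-05). Cul4b rose by 4.34 (SE 0.49, adjusted p = 1.44e-17). These 4 passed in the same direction with totals and DESeq2. Dcaf7, high only in between, changed by -0.23 (SE 0.24, adjusted p = 0.442), but by -1.63 with totals, which passed. The median of all genes was 0.41 with TMM, -0.57 with totals and -0.11 with DESeq2, and 58.9%, 29.2% and 51.1% of calls were higher.

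Other X-linked genes were counted at the same steps. X-linked UMIs were 0.123% of autosomal UMIs in wild-type pachytene-like cells, 0.656% at the meiotic division, 1.64% in round and 1.83% in elongating spermatid-like cells. Of 646 other X-linked genes tested, 239 were higher and 0 lower at the division than in pachytene-like cells, with a median log2 change of 1.67, where 29.2% of all genes were higher and 10.4% lower with a median of 0.58. At the step to round spermatid-like cells 238 were higher and 34 lower with a median of 0.70, where 26.6% and 22.3% of all genes were and the median was 0.03. Cul4b itself had 3 UMIs in the wild-type pachytene-like cells, so the size of its first change is not set against these medians. From round to elongating spermatid-like cells 105 X-linked genes were higher and 152 lower, beside 14.7% and 22.3% of all genes.

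The balance between the 2 CUL4 scaffolds can be read within a library without any scaling, as the Cul4a share of the Cul4a and Cul4b UMIs together. In wild-type pachytene-like cells Cul4a held 97.4% of the pooled UMIs (exact binomial 95% interval 92.6 to 99.5%), with 75.0 to 100% in single libraries. In meiotic division-like cells the pooled share was 33.5%, and the 11 libraries spanned 0 to 46.8%. In round spermatid-like cells it was 11.4% (8.90 to 14.3%), and the libraries spanned 3.03 to 18.5%. Elongating spermatid-like cells had 25.2%. No wild-type library with pachytene-like cells overlapped those of the later classes, and the ranges of the last 3 classes overlapped in part.

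**Figure D3:**
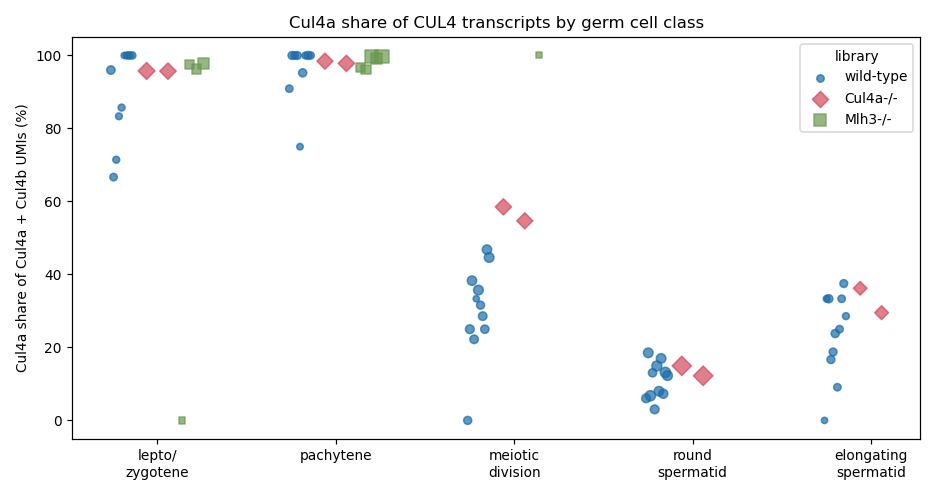
Cul4a share of the Cul4a and Cul4b UMIs (percent) in each germ cell class, 1 symbol per library, with symbol area growing with the number of UMIs. Shares are 75.0 to 100% in the wild-type pachytene-like sums and 3.03 to 18.5% in the round spermatid-like sums, and the 2 Cul4a-/- libraries exceed all 11 wild-type libraries in the division-like class.

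The cullins outside the CUL4 ligases had other courses. Among the classes from leptotene/zygotene-like cells onward, Cul1 was highest in that first class (225 to 465 CPM, median 313). It stood at 143 to 274 CPM (median 190) in pachytene-like cells. It had 81.4 to 157 CPM (median 114) at the division, 155 to 243 CPM (median 181) in round spermatid-like cells and 38.5 to 85.5 CPM (median 56.1) in elongating ones. The round spermatid range lay above the elongating range without overlap. From pachytene-like to elongating spermatid-like cells Cul1 fell by 0.42 (SE 0.17, edgeR adjusted p = 0.0329), a call that was lost without any 1 of 7 wild-type replicates but also made with totals (-1.83) and DESeq2 (-0.62).

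Cul2, which pairs with elongins and VHL, had 20.7 to 220 CPM (median 68.5) in leptotene/zygotene-like and 21.9 to 111 CPM (median 84.8) in pachytene-like cells. At the division it had 2.26 to 32.3 CPM with a median of 19.1, and in round and elongating spermatid-like cells 5.70 to 18.9 CPM (median 13.9) and 0 to 16.8 CPM (median 6.49). Its course was thus near that of Cul4a, and over the 42 wild-type sums per library and class the log2 levels of the 2 genes had a Pearson r of 0.85. Cul4a and Cul4b had an r of -0.70, and Cul4a and Ddb1 0.68, over the same sums, which share libraries and classes.

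Cul3 and Cul5 kept high levels in all classes. Cul3 had medians of 167, 196, 203, 163 and 212 CPM from leptotene/zygotene-like to elongating spermatid-like cells. Cul5, the scaffold for SOCS-box receptors, had medians of 181, 153, 264, 208 and 135 CPM in the same order, and the ranges of neighboring classes overlapped for both genes. The direction of some of their tested changes depended on scaling. From pachytene-like to division-like cells Cul3 rose by 0.55 with TMM (edgeR adjusted p = 0.000406) but changed by -0.067 with totals and -0.037 with DESeq2. From pachytene-like to elongating spermatid-like cells Cul3 changed by 1.33 and Cul5 by 1.08 with TMM and by -0.065 and -0.35 with totals, while DESeq2 gave 1.15 and 0.87, both past the threshold. The Cul5 change from round to elongating spermatid-like cells (-0.27, adjusted p = 0.0417) was lost with DESeq2 (-0.02) and without any 1 of 10 wild-type replicates.

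**Figure D4:**
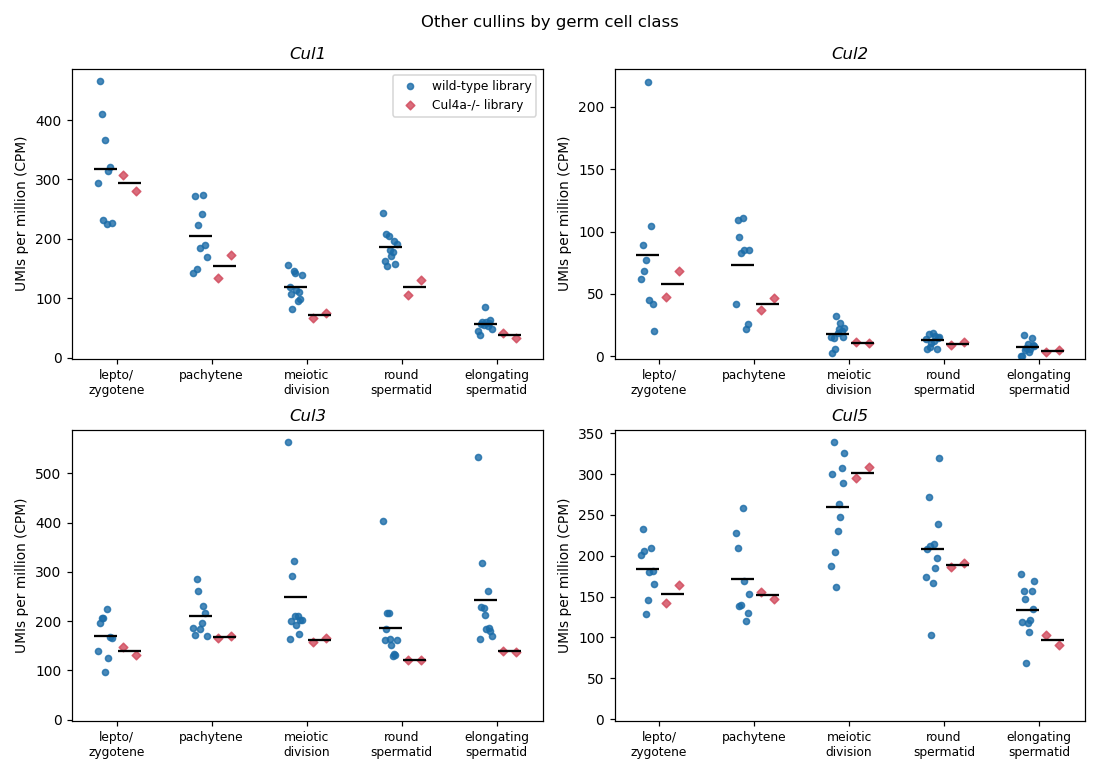
Level (CPM) of Cul1, Cul2, Cul3 and Cul5 in each germ cell class, 1 point per library, wild-type as circles and Cul4a-/- as diamonds, with means as black bars. Cul1 has wild-type medians of 114 CPM at the division, 181 in round and 56.1 in elongating spermatid-like cells, and Cul2 falls from 84.8 in pachytene-like cells to 19.1.

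Cul7 was hardly detectable in meiotic and later cells at this depth. Wild-type leptotene/zygotene-like, pachytene-like, division-like and round spermatid-like cells held 0 Cul7 UMIs, and elongating spermatid-like cells held 1. A count of 0 allows up to 7.31, 3.22, 0.645 and 0.582 CPM (3 UMIs over the class) in those 4 classes. The 28 wild-type spermatogonia-like cells held 3 UMIs (66.9 CPM, exact Poisson 95% interval 13.8 to 196). In the same few cells Cul5 had 402 CPM, Cul1 312, Cul4a 156 (interval 62.8 to 322), Cul3 134, Ddb1 134, Cul4b 89.2 (24.3 to 229), Cul2 66.9 and Dcaf7 22.3 CPM. These intervals are wide and no test was made on this class.

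The sorted libraries, 1 of each type and thus without replicates, gave a second view. Sorted spermatogonia had 291 CPM of Cul1, 377 of Cul5, 187 of Cul3, 174 of Cul4b, 117 of Ddb1, 78.7 of Cul2, 76.2 of Cul4a, 71.9 of Dcaf7 and 54.8 of Cul7. Cul7 in that library was above every whole-testis library. From the sorted primary spermatocytes through secondary spermatocytes to spermatids, Cul4a had 74.7, 15.3 and 4.22 CPM, Cul4b 0, 45.8 and 42.2 CPM, and Ddb1 131, 45.8 and 12.7 CPM. Of the 3 sorts, the primary spermatocytes thus had the highest Cul4a and Ddb1 and no Cul4b UMI, which allows up to 28.0 CPM. The levels above count all barcodes, whereas the classes below count only cells that passed the filters. By markers 94.2% of the kept sorted spermatogonia were spermatogonia-like and 73.2% of the kept sorted spermatids elongating spermatid-like. The markers went against the label of the primary spermatocytes, since 84.0% of its kept cells fell in the erythroid-like class. Of the 398 barcodes labelled secondary spermatocytes 154 were kept, of which 47.4% were elongating and 28.6% round spermatid-like. Most of these elongating spermatid-like cells (75.3%) lay in cluster 21, which scored 0.65 as elongating and 0.50 as round spermatid.

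In Mlh3-/- testes, which lack the MutL protein MLH3 of meiotic recombination, Cul4a was 109 to 180 CPM over the 6 libraries, above every wild-type library. Cul4b was 9.78 to 52.9 CPM, Ddb1 120 to 171 CPM and Cul2 39.6 to 57.4 CPM. Cul7 was 2.85 to 11.1 CPM, from 3 to 20 UMIs a library, where 10 of 11 wild-type libraries had at most 0.967 CPM. In whole libraries, which count all barcodes, fewer cells of a type and less RNA per cell cannot be told apart. Of 11210 Mlh3-/- barcodes 2787 passed the cell filters, against 25053 of 26123 in wild-type. The Mlh3-/- cells kept held no round or elongating spermatid-like cells. Mlh3-/- pachytene-like cells had 140 to 339 CPM of Cul4a, 0.594 to 11.3 CPM of Cul4b and a Cul4a share of 96.2 to 99.7%. The share lay within the wild-type range for that class.

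By a fixed rule the 2 genes with the most similar course were named for each member, as the highest Pearson r of log2(CPM + 20) among 6025 genes over 42 wild-type sums per library and class. For Cul4a they were 1700006A11Rik (r = 0.95) and Nae1 (0.95), which encodes a subunit of the NEDD8-activating enzyme. Cul4b was closest to 4931409K22Rik (0.93) and Bbx (0.91), Ddb1 to Vcp (0.95), a segregase for ubiquitylated proteins, and Tuba3b (0.94). Dcaf7 was closest to Catsper2 (0.94), a sperm calcium channel subunit, and Zpbp2 (0.93). For Cul1 the genes were H3f3b (0.92) and Zfp263 (0.88), for Cul2 Fam173a (0.89) and Mrps5 (0.89), for Cul3 Gm9843 (0.77) and Tcp10a (0.77), and for Cul5 Gosr1 (0.80) and Abhd17b (0.78). Cul3 and Cul5 thus had weaker best matches than the other 6 members tested. Such correlations describe classes and libraries together, and the sums share libraries.

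Cul4a-/- and wild-type libraries were then compared over whole testes. Cul4a itself had 54.5 and 49.0 CPM in the 2 Cul4a-/- libraries, both above the highest wild-type library (45.7 CPM), with a wild-type mean of 30.7 ± 12.5 CPM (SD, n = 11). The log2 difference was 0.67 (SE 0.28, 95% interval 0.12 to 1.22), with an edgeR adjusted p of 0.223. Transcript ends of Cul4a were thus still counted in these libraries. The mix of named cells differed with genotype. Leptotene/zygotene-like cells were 5.64% of all kept Cul4a-/- cells and 0.982% of wild-type cells, and pachytene-like cells 4.43% and 1.42%. These shares count the unnamed cells, which were 31.2% of Cul4a-/- and 64.6% of wild-type cells. Unnamed cluster 20 scored best as pachytene and held 4 Cul4a-/- and 286 wild-type cells. The pachytene-like difference thus depends on which clusters were named. The part of the cell mix in the whole-testis values was not tested. None of the 9 members passed in whole libraries, against 2.06% of 23386 genes (1.75% higher and 0.308% lower), while 3710 genes had an unadjusted p under 0.05, and DESeq2 called 1 member (Cul1, -0.42, adjusted p = 0.0218) and 4.15% of genes. All genes had a median log2 difference of 0.19 with TMM, 0.19 with totals and 0.05 with DESeq2, and 85.0%, 83.7% and 39.0% of calls were higher in Cul4a-/-.

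The other whole-testis members lay mostly inside the wild-type range. Cul4b had 40.2 and 47.5 CPM, Ddb1 78.5 and 74.1 CPM and Dcaf7 139 and 130 CPM. For Cul4b the first value was below every wild-type library and the second inside their range, whereas Dcaf7 lay within it. Ddb1 lay within it only through wild-type replicate 1 (112 CPM), since the other 10 libraries reached at most 66.4 CPM. Cul2 had 16.1 and 17.4 CPM, Cul5 195 and 189 and Cul7 0.722 and 1.13, all inside the wild-type range. Cul1 had 102 and 114 CPM and was inside the range only through wild-type replicate 2 (100.1 CPM), since the 8 HiSeq libraries of mechanical dissociation had 127 to 154 CPM. Cul3 had 144 and 145 CPM, below all 11 wild-type libraries (lowest 172), with a log2 difference of -0.68 (SE 0.31, edgeR adjusted p = 0.279). The adjusted p-values of the 9 members ran from 0.223 to 0.983.

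The Cul4a share of the CUL4 UMIs was 57.5% and 50.8% in the Cul4a-/- libraries and 35.6 ± 13.6% (SD, n = 11) in wild-type libraries, which ranged from 3.28 to 48.1%. Both lay above all wild-type libraries. The difference of 18.5 percentage points had a p of 0.0769 in an exact two-sided permutation test over 78 splits, which cannot go below 0.0128. Among HiSeq libraries of mechanical dissociation only, the difference was 12.1 points with an exact permutation p of 0.0222, the smallest that 45 splits allow.

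Strains were also compared within classes to lessen differences in the mix of cells. Even so, different clusters held most cells of a class in wild-type and Cul4a-/- libraries. Of the pachytene-like cells, cluster 11 held 71.4% in wild-type and 18.2% in Cul4a-/-, and cluster 30 held 21.8% and 79.8%. Of the division-like cells, cluster 22 held 98.4% in Cul4a-/- and 0.0512% in wild-type, where clusters 9 and 12 held 41.0% and 39.3%. Clusters 23 and 24 held 43.8% and 37.2% of the Cul4a-/- round spermatid-like cells against 0.0379% and 0.266% in wild-type, and cluster 19 held 43.9% of the elongating spermatid-like cells of Cul4a-/- against 0.859%. Depth per cell differed with them: the median pachytene-like cell had 1808 UMIs in wild-type and 5932.5 in Cul4a-/-, and the median round spermatid-like cell 1189.5 and 3408.5. The part of these differences in the results below was not tested.

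In pachytene-like cells 1 of 8 members passed, against 1.91% of 14227 genes (1.83% higher and 0.0773% lower). Dcaf7 had 152 and 140 CPM in Cul4a-/-, above all 9 wild-type libraries (36.9 to 108 CPM). Its log2 difference was 1.02 (SE 0.24, edgeR adjusted p = 0.0136), or 0.70 above the median of all genes. With totals it was 0.68 (adjusted p = 0.265) and with DESeq2 0.73 (adjusted p = 0.256). Without Cul4a-/- replicate 1 it was 0.77 (adjusted p = 0.721) and without replicate 2 it was 0.94 (adjusted p = 0.262), so the call did not survive the loss of either library or another scaling, while the direction was the same in each of these fits.

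The CUL4 scaffolds and Ddb1 did not pass in that class. Cul4a had 114 and 154 CPM in Cul4a-/- against 65.8 to 164 in wild-type, with a log2 difference of 0.47 (edgeR adjusted p = 0.347). Cul4b had 1.81 and 3.42 CPM and Ddb1 136 and 170 CPM, inside the wild-type ranges. All genes had a median difference of 0.32 with TMM, 0 with totals and -0.13 with DESeq2, and 96.0%, 67.9% and 54.2% of calls were higher. In leptotene/zygotene-like cells, which were not tested between strains, Cul4a had 249 and 234 CPM in Cul4a-/-, also inside the wild-type range.

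At the meiotic division none of 8 members passed with TMM, against 16.5% of 15829 genes (9.99% higher and 6.51% lower), while 4616 genes had an unadjusted p under 0.05 and DESeq2 called 1 member, Cul1, and 10.5% of genes. Ddb1 had 114 and 111 CPM in Cul4a-/- against a wild-type median of 77.3 and a range of 64.8 to 180, with a log2 difference of 0.64 (SE 0.24, 95% interval 0.18 to 1.10, edgeR adjusted p = 0.0568). Cul4b had 24.9 and 30.0 CPM, below all 11 wild-type libraries, with -0.76 (SE 0.32, adjusted p = 0.104). Cul4a had 35.1 and 36.3 CPM, inside the wild-type range of 0 to 50.7, with 0.69 (SE 0.33, adjusted p = 0.146). Cul1 had 67.5 and 75.1 CPM, below all wild-type libraries (lowest 81.4), with -0.51 (adjusted p = 0.142), and DESeq2 gave -0.75 (adjusted p = 0.00502). Other settings made calls here. With totals Cul1 (-0.71, edgeR adjusted p = 0.0428) and Cul4b (-0.95, adjusted p = 0.0447) passed, as did 14.3% of all genes. In HiSeq libraries of mechanical dissociation Ddb1 (0.71, edgeR adjusted p = 0.000748), Cul1 (-0.57, adjusted p = 0.0124) and Cul4b (-0.66, adjusted p = 0.0274) passed, as did 25.1% of all genes.

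Accordingly the Cul4a share of CUL4 UMIs in this class was 58.5% and 54.7% in Cul4a-/-, above all 11 wild-type libraries (0 to 46.8%), a description for which no test was planned. In pachytene-like, round and elongating spermatid-like cells the shares of the 2 Cul4a-/- libraries lay inside the wild-type ranges. All genes at the division had a median difference of 0.20 with TMM, 0.02 with totals and -0.11 with DESeq2, and 60.5%, 41.8% and 24.0% of calls were higher.

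In round spermatid-like cells none of 8 members passed with TMM, against 6.3% of 17044 genes (4.89% higher and 1.41% lower), with 3407 genes at an unadjusted p under 0.05 and 1 member, Cul1, called by DESeq2 with 3.86% of genes. Cul1 had 106 and 131 CPM in Cul4a-/-, below all wild-type libraries (lowest 155), with a log2 difference of -0.61 (SE 0.21, edgeR adjusted p = 0.0695) and of -0.64 with DESeq2 (adjusted p = 0.00137). Cul1 also passed with totals (-0.64, edgeR adjusted p = 0.0490), as did 6.04% of all genes. In HiSeq libraries of mechanical dissociation Cul1 (-0.55, edgeR adjusted p = 0.00505) and Ddb1 (0.71, adjusted p = 0.0211) passed, as did 15% of all genes. Cul4a had 16.1 and 11.9 CPM (log2 difference 0.19, edgeR adjusted p = 0.802) and Cul4b 91.6 and 85.7 CPM (-0.13, adjusted p = 0.809), both inside the wild-type ranges. Ddb1 had 31.8 and 35.8 CPM (0.63, adjusted p = 0.119) and Dcaf7 110 and 102 CPM (0.43, adjusted p = 0.295), also inside them. Cul3 had 121 and 122 CPM, below all wild-type libraries (lowest 129), with -0.50 (adjusted p = 0.211). Median differences of all genes were 0.18, 0.15 and 0.10, and 77.6%, 72.7% and 40.1% of calls were higher with TMM, totals and DESeq2.

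In elongating spermatid-like cells none of 8 members passed, against 5.29% of 14562 genes (4.44% higher and 0.858% lower), with 2571 genes at an unadjusted p under 0.05 and no member called by DESeq2. Cul4a had 11.7 and 9.46 CPM, Cul4b 20.7 and 22.6, Ddb1 14.0 and 15.2 and Dcaf7 17.9 and 13.7 CPM, all inside the wild-type ranges. Cul3 had 140 and 137 CPM, below all wild-type libraries (lowest 164), with a log2 difference of -0.35 (edgeR adjusted p = 0.500). The log2 differences of the CUL4 genes ran from -0.47 (Dcaf7, 95% interval -1.13 to 0.19) to 0.39 (Cul4a, -0.46 to 1.23). These intervals are wide, and a p that misses the threshold does not show that the strains were alike. The median difference of all genes was 0.20 with TMM, -0.12 with totals and 0.01 with DESeq2, and 83.8%, 32.0% and 49.9% of calls were higher.

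**Figure D5:**
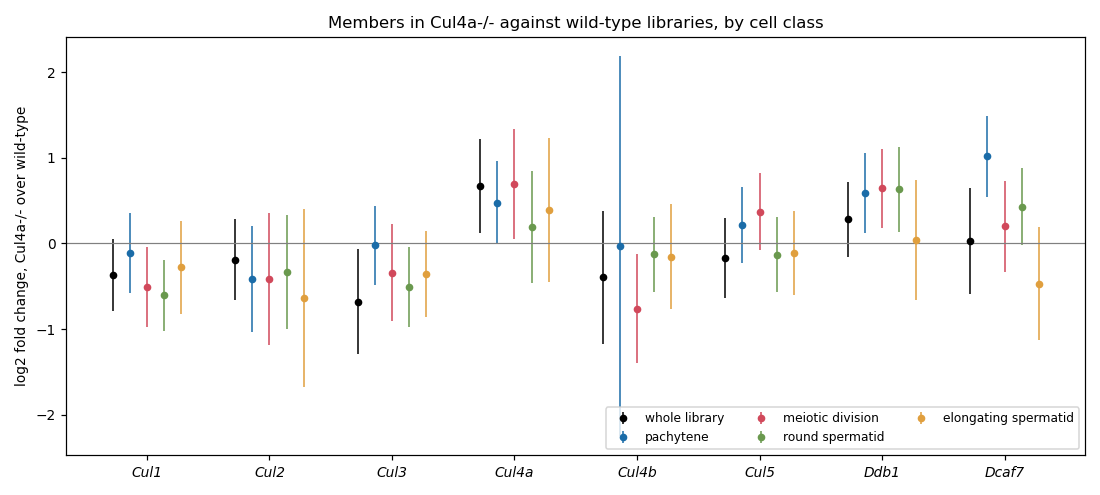
Log2 fold change of 8 members in Cul4a-/- over wild-type libraries, in whole libraries and in 4 cell classes, with 95% intervals of the edgeR fit. Dcaf7 in pachytene-like cells (1.02) is the only value past the adjusted threshold, and the interval of Cul4b in pachytene-like cells is the widest because few Cul4b UMIs were counted there.

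Whether a step itself differed between strains was asked in a fit added after the data had been seen, with the step and the strain as interacting terms over 20129 genes. Dcaf7 rose less from pachytene-like to division-like cells in Cul4a-/-, by -1.23 on the log2 scale (SE 0.26, edgeR adjusted p = 0.000521), and it was the only one of 8 members past the threshold at any of the 3 steps with TMM, against 3.29% of genes at that one and 6.15% and 2.69% at the later 2. With DESeq2 the value was -0.84 (adjusted p = 0.0191) and with totals -0.81 (adjusted p = 0.0674). In the fits per class Dcaf7 was higher in Cul4a-/- pachytene-like cells (1.02), and at the division its difference was 0.20 (SE 0.27, edgeR adjusted p = 0.680). Cul4b at the step to round spermatid-like cells had 0.64 (adjusted p = 0.130) with TMM but passed with totals (0.79, adjusted p = 0.0231) and DESeq2 (0.85, adjusted p = 0.00221), and DESeq2 alone called Cul5 there (-0.31, adjusted p = 0.0483). Of all genes, 7.53% passed with totals and 6.52% with DESeq2 at that step. Dcaf7 at the step from round to elongating spermatid-like cells passed with totals alone (-1.20, adjusted p = 0.00772), as did 2.66% of all genes. Cul4a did not pass at any step in the TMM fit (adjusted p between 0.606 and 1).

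Partners of the cullins were read at the same steps. Their lists were chosen with earlier results of these data known, so the counts per list are a description and no test of the lists. From pachytene-like to elongating spermatid-like cells, 11 of 14 adaptors and receptors of CUL2 and CUL5 rose and 2 fell, with a median log2 change of 2.62. Over all genes at this span 28.1% were higher and 19.6% lower with a median of 0.41. Of 24 CUL4 receptors and DDB1 partners, 7 rose and 7 fell with a median of 0.0019. Of 13 genes of deneddylation and exchange, which include the COP9 signalosome that removes NEDD8, 3 rose and 8 fell with a median of -1.22, and both RING subunits fell. Among 10 neddylation genes 4 rose and 4 fell, among 12 CUL1 adaptors and receptors 4 rose and 5 fell, and among 14 CUL3 receptors 4 rose and 4 fell. Neither of 2 other cullin homologues (Cul9, Anapc2) nor either of 2 CUL7 partners passed. All 93 partner genes tested had 33 higher and 32 lower with TMM, 31 and 30 with DESeq2 and 22 and 51 with totals.

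The 4 partners with the smallest adjusted p over that span were Klhl10 (5.79), a testis-specific CUL3 receptor, Dcun1d1 (5.03), a NEDD8 ligase for cullins, Skp2 (6.27), an F-box receptor of CUL1, and Vhl (4.83), the von Hippel-Lindau receptor of CUL2. All 4 rose with each scaling. At the first step Klhl10 rose by 3.65, Dcun1d4 by 2.82, Fem1b by 2.32 and Fem1c by 1.89, the last 2 being CUL2 receptors. At the step to round spermatid-like cells Fbxo24 rose by 3.89, Vhl by 3.11, Asb9 by 2.80 and Dcun1d1 by 2.30, while 9 of 13 deneddylation and exchange genes fell and none rose, beside 22.3% of all genes lower and 26.6% higher at that step. From round to elongating spermatid-like cells Skp2 rose by 1.93, Asb1 by 1.84, Asb8 by 1.68 and Dcun1d1 by 1.43.

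Partners were also compared between Cul4a-/- and wild-type libraries. None of 96 passed in whole libraries by edgeR, and DESeq2 called 4, beside 4.15% of all genes. In pachytene-like cells 1 of 94 passed beside 1.91% of all genes, the CUL3 partner Rhobtb1 (1.76), a call that neither totals nor DESeq2 made. At the division 15 of 91 passed, 10 higher and 5 lower, close to the 16.5% of all genes, and with totals the split was 6 and 7. By name these included Klhl10 (-1.60), Dcun1d4 (-1.39), Spsb1 (-1.87), a CUL5 receptor, and elongin B, Tceb2 (1.12), and both RING subunits were higher. DESeq2 did not make the Tceb2 call. In round spermatid-like cells 4 of 93 passed (4.3%) beside 6.3% of all genes. Ube2m (0.87), the NEDD8 E2 enzyme, and Fbxw11 (2.34) were higher and Keap1 (-0.72) and Kbtbd7 (-1.11) lower, of which DESeq2 made the Keap1 call alone. In elongating spermatid-like cells 2 of 91 passed (2.2%) beside 5.29% of all genes. Dda1 (1.06), a DDB1 partner, and Tceb1 (0.75), elongin C, were higher, and the latter call was lost with both other scalings.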

How the data were processed

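Per the labels, the authors dissociated testes or sorted germ cells, prepared Drop-seq libraries, aligned reads to mm10 (GRCm38) with STAR 2.5.3a and deposited, for each of the 25 libraries, raw UMI counts of genes by barcodes, without normalization. Gene positions came from GENCODE vM21, promoters from RefSeq (GRCm38.p6) and platforms and pooling from the study's methods and sample list. The members and the partner lists were chosen with earlier results of these data known.

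Barcodes with at least 200 UMIs and 50 genes were kept, then barcodes more than 1 SD under their library's mean or with a high share of mt-Rnr2 were removed, which left 36622 of 48642. Cells were clustered without the members and listed genes (igraph 0.11.9, leidenalg 0.10.2, 40 components, 20 neighbors, resolution 2) and 36 of 48 clusters were named from markers. Counts were summed per library and class (at least 10 cells) and fitted with edgeR 4.0.16 (quasi-likelihood test, TMM, genes with at least 5 counts in the fit, Benjamini-Hochberg adjustment, two-sided, threshold 0.05). Each strain comparison used 1 fit over all 4 strains, except that the round and elongating spermatid-like fits held no Mlh3-/- library. The division-like fit held 1 Mlh3-/- library and the pachytene-like fit 1 CNP library. Stage comparisons used wild-type libraries with the library as block. All 9 members are named, with at most the 4 partners of smallest adjusted p per comparison and the 2 most correlated genes. Alternatives were DESeq2 1.42.0 (in the stage fits its parametric dispersion trend did not converge and a local one replaced it), library totals, other filters and clusterings, platform, replicate block and left-out replicates. Procedures were tested on simulated data. The labels do not always say that libraries came from separate animals, so p-values measure the spread between libraries. Tools were Python 3.11.15, scipy 1.17.1, pandas 2.3.3 and R 4.3.3.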

Additional observations from a re-analysis of the deposited data

Results flagged for a closer look

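Among 48 groups of 4 to 10 libraries, 9 values lay far from the rest of their group by Dixon's test, which chance alone does in about 1 group in 20. Groups of 11 wild-type libraries were not screened, which covers whole testes and the division-like, round and elongating spermatid-like classes. Wild-type replicate 1 could thus not be flagged, although it had 165 CPM of Cul4b in whole testes where the next highest wild-type library had 64.8. Wild-type replicate 5 had 3 of them in its 10 pachytene-like cells: Dcaf7 at 36.9 CPM where the other libraries had 84.8 to 108, Cul4b at 36.9 CPM where the others had 0 to 8.43, and a Cul4a share of CUL4 UMIs of 75.0% where the others had 90.9 to 100%. Both values of 36.9 CPM were 1 UMI in a class sum of 27116 UMIs. The share was 3 UMIs of Cul4a beside 1 of Cul4b, and the chance rate does not hold for such counts. In leptotene/zygotene-like cells of the same replicate Cul2 stood at 220 CPM against 20.7 to 104 in the other libraries.

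In leptotene/zygotene-like cells of Mlh3-/- testes, replicate 2 had 0 CPM of Cul4a where the other 3 libraries had 255 to 270, 146 CPM of Cul4b where the others had 5.92 to 10.2, and hence a Cul4a share of 0% against 96.3 to 97.7%. Its class sum had 15 cells and 20551 UMIs, of which 3 were Cul4b and 0 Cul4a, so the share of 0% rests on 3 UMIs. Replicate 4 of that strain had 277 CPM of Cul1 against 480 to 487. In pachytene-like cells of Mlh3-/- replicate 3, Cul7 stood at 4.44 CPM where the others had 0 to 1.19, but this was 1 UMI. The chance rate above does not hold for such counts, here or in replicate 2.

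The step of Dcaf7 from pachytene-like to meiotic division-like cells differed between Cul4a-/- and wild-type libraries by -1.23 on the log2 scale, by an interaction term (edgeR adjusted p = 0.000521) in a fit added after the data were seen. With library totals it was -0.81 (adjusted p = 0.0674), which did not pass. Between strains Dcaf7 was higher in Cul4a-/- pachytene-like cells (1.02), and its difference at the division was 0.20.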

How the results depend on the processing

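Stage comparisons kept their member counts within 1.5 times under every alternative. Strain counts were less stable. In pachytene-like cells the 1 member called (Dcaf7) became 0 with DESeq2, filterByExpr, no filter on low counts, HiSeq mechanical libraries, the replicate block, library totals, cells filtered on UMIs and genes only, a Leiden resolution of 1, at least 50 cells per sum, and 0 to 0 over the left-out replicates, and it stayed 1 with platform as covariate. At the division the 0 called became 1 with DESeq2, filterByExpr, platform or the UMI and gene filter, 2 with totals (Cul1, Cul4b) and 3 with HiSeq mechanical libraries or 50 cells per sum (Cul1, Cul4b, Ddb1). In round spermatid-like cells 0 became 1 with DESeq2, filterByExpr, totals and 50 cells per sum, and 2 with HiSeq mechanical libraries (Cul1, Ddb1). Whole libraries gave 1 instead of 0 with DESeq2. For filterByExpr, platform, the UMI and gene filter and 50 cells per sum the share of all genes called is not given. Those counts show only how member calls moved. The share difference of 18.5 points became 12.1 in HiSeq mechanical libraries, where it passed, and 15.2 to 21.9 over the left-out Cul4a-/- replicates. Without wild-type replicate 1, left out after the data were seen, it was 15.3 points (exact permutation p = 0.0606). The causes were not tested.

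With the replicate block, 1 member was called in whole libraries (Cul4a, 1.40, edgeR adjusted p = 0.0327), 0 in pachytene-like cells, 3 at the division (Cul3, Cul4b, Dcaf7) and 2 in round spermatid-like cells (Cul3, Dcaf7). The shares of all genes called in these fits are not given here, so the counts show only how member calls moved. Same-numbered libraries did not deviate together (r of -0.04 and 0.07 for numbers 1 and 2), so the numbers do not pair the samples.

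Among member changes that passed the threshold in either of the fits compared, directions turned for Cul3 from pachytene-like to division-like cells (-0.037 with DESeq2, -0.067 with totals), Cul3 and Cul5 from division-like to round spermatid-like cells with totals (-0.37 and -0.33), and Cul3 and Cul5 from pachytene-like to elongating spermatid-like cells with totals (-0.065 and -0.35). With at least 50 cells per sum, which leaves fewer libraries, the Cul4a change from pachytene-like to division-like cells was -0.95 (edgeR adjusted p = 0.0785).

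Over all genes, calls between strains ranged from 105 to 2025 around 481 in whole libraries, 26 to 404 around 272 in pachytene-like, 368 to 3919 around 2613 in division-like, 174 to 2521 around 1074 in round and 37 to 1493 around 771 in elongating spermatid-like cells. Few UMIs were counted for Cul7 outside the sorted spermatogonia and for Cul4b in pachytene-like cells, which limits the precision of their levels and fold changes.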
